A study of Mus musculus with 8 samples.

Results

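The NIH-3T3 line of mouse embryo fibroblasts gave 5 small-RNA libraries that were used here to set serum-starved cells against serum-released cells. All cells had been passaged in DMEM with 10% DCS, the serum named in the labels, and were then starved of serum for 48 h. The 0 h library came from cells collected at that point, which the labels place in G0. The other 4 came from cells collected 12 h (G1), 16 h (S), 20 h (G2/M) and 24 h (G1) after medium with 20% serum was added. These 5 libraries are the serum experiment among the 8 of the series, they were chosen by their labelled treatment and time, and the contact-inhibition libraries were not used. Each time has 1 library, so no difference between times has a replicate check, and serum, time and cell-cycle phase change together and cannot be told apart.

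A microRNA (miRNA) is cut from a hairpin precursor first by Drosha and then by Dicer, which leaves a duplex of a 5p and a 3p arm. One arm is usually kept by an Argonaute protein as the guide and the other, the passenger, is usually lost. The guide pairs with target mRNAs mainly through its seed, bases 2 to 8 from the 5′ end, so a shift of the 5′ end changes the seed, while trimming or adding bases at the 3′ end does not. Fibroblasts without serum leave the cell cycle reversibly, and serum brings back growth-factor signalling and then DNA synthesis.

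The deposited reads numbered 6121247 at 0 h and from 7071603 to 8512472 in the released libraries. Most were marker oligonucleotides (62.1% at 0 h, 78.3% at 16 h and 94.0% to 95.1% at the other 3 times). Reads with an insert under 16 nt, or with none, were 27.9% at 0 h against 0.244% to 0.777% in the released libraries. Those with no insert at all were 23.6% of the reads at 0 h and 0.00962% to 0.0414% after release. After markers and these reads were removed, 235067 miRNA reads were left at 0 h, 201931 at 12 h, 884579 at 16 h, 182213 at 20 h and 136484 at 24 h. The 12 h library was the least diverse, with 224 miRNAs expected at a common depth of 136484 reads against 293 to 346 in the other 4 libraries. Fibroblast or mesenchymal markers fitted the labelled cell type: all 6 had reads in every library, and together they gave 236930 TMM-scaled counts per 1000000 miRNA reads (CPM) at 0 h and 162420 to 271930 CPM after release. The 5 most abundant miRNAs were miR-125b-5p, miR-199a-3p, miR-29a-3p, miR-21a-5p and miR-24-3p, and none of them was among those that set 0 h apart.

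A miRNA was taken to set 0 h apart when its CPM at 0 h was at least 2-fold above, or at least 2-fold below, that of each of the 4 released libraries, with all 4 counting intervals excluding 1. Among the 218 miRNAs with at least 100 reads in 1 library, 10 were higher (4.59%) and 13 were lower (5.96%). The 0 h library alone can meet this minimum, and miR-200c-3p, miR-141-3p and miR-200b-3p reached 100 reads only there. They were thus counted because of the level being compared, which favours a higher call. The 10 and the 4.59% include them. The mature sequences of the miRNAs set apart follow (RefSeq, build GRCm38.p6, seed in capitals), since the seed is what a change in level would bring to, or take from, target mRNAs. No RefSeq sequence was found for miR-669c-5p. The miRNAs higher at 0 h were:

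miR-200c-3p: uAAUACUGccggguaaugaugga

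miR-200b-3p: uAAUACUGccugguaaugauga

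miR-141-3p: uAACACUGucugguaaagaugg

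miR-10a-5p: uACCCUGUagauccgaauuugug

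miR-503-5p: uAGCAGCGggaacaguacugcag

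miR-33-5p: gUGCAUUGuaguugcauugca

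miR-210-3p: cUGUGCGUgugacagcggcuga

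miR-329-5p: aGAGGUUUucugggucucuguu

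miR-376a-3p: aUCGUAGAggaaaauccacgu

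The miRNAs lower at 0 h were:

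miR-155-5p: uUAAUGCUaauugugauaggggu

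miR-146b-5p: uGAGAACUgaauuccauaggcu

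miR-17-5p: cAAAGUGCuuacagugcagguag

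miR-92a-3p: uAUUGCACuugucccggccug

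miR-29b-1-5p: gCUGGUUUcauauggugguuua

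miR-125b-1-3p: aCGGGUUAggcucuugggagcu

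miR-365-2-5p: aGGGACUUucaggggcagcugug

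miR-324-3p: cCACUGCCccaggugcugcu

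miR-674-3p: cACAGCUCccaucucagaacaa

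miR-872-3p: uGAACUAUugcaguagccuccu

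miR-183-5p: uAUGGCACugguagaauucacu

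miR-323-3p: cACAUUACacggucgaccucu

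miR-668-3p: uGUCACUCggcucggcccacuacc

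The 22 sequences held 21 seeds, and only miR-200b-3p and miR-200c-3p shared one. miR-141-3p belongs to the same family, with a seed that differs from theirs. The reads of miR-365-2-5p most often began 1 base upstream of the RefSeq start, which shifts the printed seed, while those of the other 21 most often began where RefSeq puts them.

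**Figure D1:**
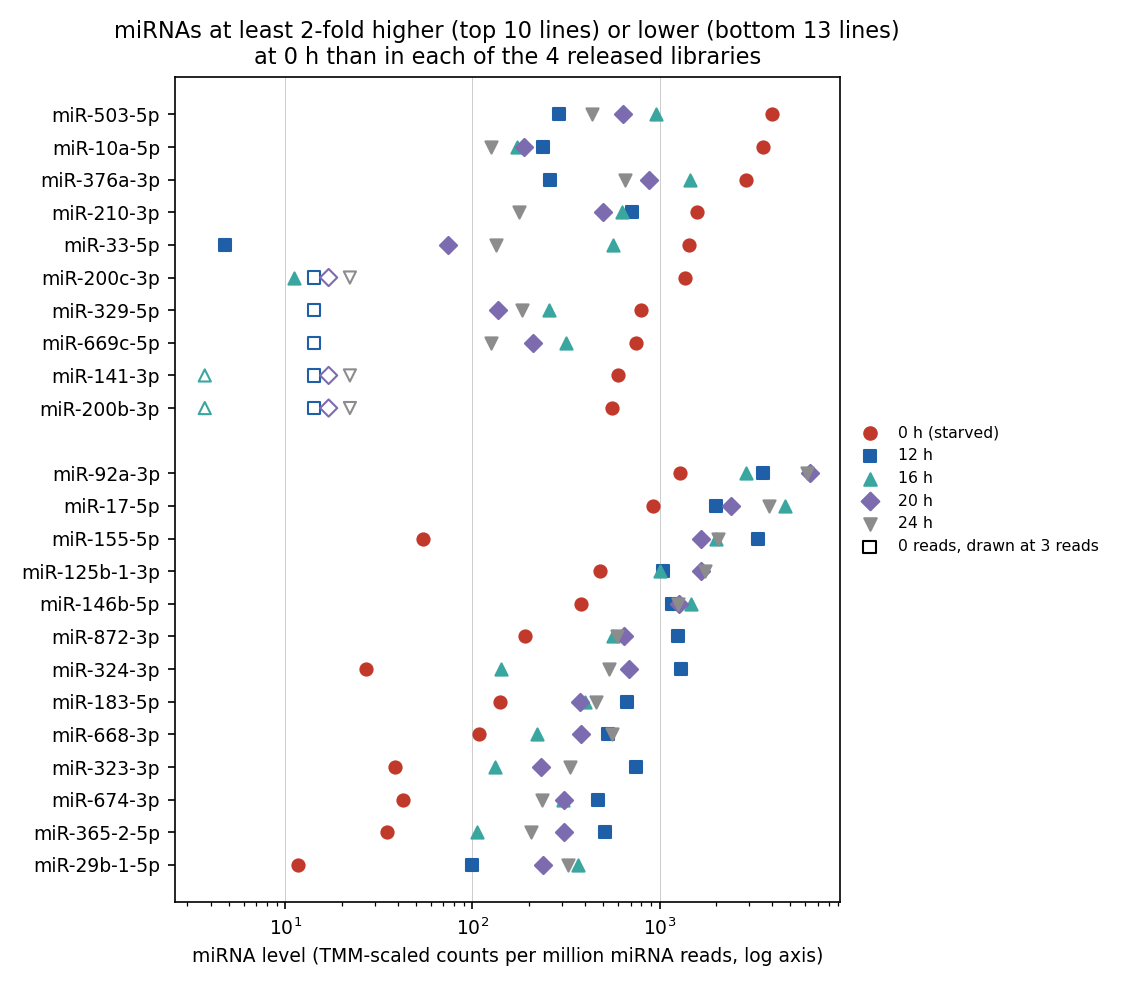
Level of the 10 miRNAs higher and the 13 lower at 0 h (x axis, TMM-scaled CPM, log scale; 1 line per miRNA, 1 symbol per library, open symbols for libraries with 0 reads drawn at the level of 3 reads). The 0 h symbol lies outside the 4 released symbols on every line because that is how the miRNAs were chosen, and the distance to the nearest released symbol runs from 2.00-fold for miR-376a-3p to 62.0-fold for miR-200c-3p, where that symbol is an open one.

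The members of the miR-200 family were seen almost only in the starved library. miR-200c-3p, which represses the ZEB transcription factors and is known as an epithelial miRNA, had 354 reads at 0 h, 9 at 16 h and 0 at 12, 20 and 24 h. That is 1374 CPM at 0 h and 11.2 CPM at 16 h, a ratio of 123 (95% interval 64.1 to 272). With 0 reads set to 3, the ratio to 24 h was 62.0 (lower limit of the interval 50.2), and those to 12 and 20 h were larger. miR-141-3p, made from the same transcript as miR-200c on chromosome 6 (124717917 to 124717938, minus strand, against 124718324 to 124718346), was 601.6 CPM at 0 h and had 0 reads in each released library. With these set to 3, its smallest ratio was 27.15 (lower limit 21.8), to 24 h. miR-200b-3p, from the other cluster of the family on chromosome 4 (156055685 to 156055706, minus strand, in an intron of Ttll10), was 554.98 CPM at 0 h and had 0 reads after release. Its smallest ratio, found in the same way, was 25.05 (lower limit 20.1). miR-200a-3p, below the 100-read minimum, had 33 reads at 0 h and 0 in the other 4.

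Other miRNAs known from epithelium did not follow one pattern. miR-203-3p had 40 reads at 0 h and 0 after release, whereas miR-192-5p, miR-194-5p and miR-205-5p had 0 reads at 0 h and up to 26, 52 and 12 after release. The 8 epithelial markers summed to 2814 CPM at 0 h and 0 to 113 CPM in the released libraries. Of markers of other cell types, the blood miRNA miR-142a-3p also had reads only at 0 h (62 reads, 241 CPM), those of muscle (291 CPM) lay within the released range, and the 5 of neural cells (1168 CPM) lay between 294 and 3419 CPM. The pluripotent markers, the miR-290 to miR-295 group, were highest at 12 h (1341 CPM, against 202 CPM at 0 h). In bulk RNA, a few cells of another type with much of a miRNA and many fibroblasts with little of it cannot be told apart. The part of other cells, or of reads from another library, in the reads of the miR-200 family, miR-203-3p and miR-142a-3p was not tested, so the folds given for them compare these libraries. Reads of the 10 higher miRNAs at 0 h came from 2 to 12 distinct inserts each, where the 76 miRNAs with 100 to 400 reads at 0 h had a median of 5 (2 to 16). miR-503-5p, miR-10a-5p, miR-376a-3p and miR-210-3p had more than 400 reads at 0 h, so this band does not compare them at their own depth.

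miR-10a-5p, encoded in the Hoxb cluster (chromosome 11, 96317186 to 96317208, plus strand), was 3586 CPM at 0 h. It was 237, 172, 188 and 126 CPM at 12, 16, 20 and 24 h. The released values lay close together, and the 0 h value was 15.1-fold (11.4 to 20.5) above the nearest of them, at 12 h. Among the 9 members with 100 reads of the list that joins miR-10 to miR-99, miR-100 and miR-125, it was the only one higher by the 2-fold rule. Of these 9, 3 lay above the released range and 3 below it. miR-10b-5p was above it too, at 5065 CPM against 1251 to 3807 CPM, 1.33-fold over the nearest. The most abundant member of the list, miR-125b-5p, was below the released range at 56643 CPM, but 72187 CPM at 16 h was close to it (159280, 150870 and 144330 CPM at 12, 20 and 24 h). The second, miR-125a-5p, lay within the released range with 17977 CPM at 0 h and 16387 to 33868 CPM after release.

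miR-503-5p, a member of the miR-16 seed group that represses cyclins and CDC25A, was 4009 CPM at 0 h. Its released values were 289 CPM at 12 h, 958 at 16 h, 637 at 20 h and 436 at 24 h. The starved level was 4.18-fold (3.81 to 4.6) above the nearest, 16 h, and 13.9-fold (10.7 to 18.3) above 12 h. It was the only one of 7 seed-group members set apart. miR-16-5p, the most abundant, had 14911 CPM at 0 h and 14296 to 18980 CPM after release. miR-322-5p, whose hairpin lies beside that of miR-503 on the X chromosome, was above all released values at 13933 CPM, but the 16 h value of 10081 CPM was within 2-fold of it (4484, 6547 and 4690 CPM at the other times). Of the 6 members of this cluster with 100 reads, 3 lay above the released range, and the second most abundant, miR-351-5p (1743 CPM), lay within it. The median log2 ratio of 0 h to the mean of the released libraries was 0.46 in the seed group and 0.81 in the cluster, against −0.07 over all 218 miRNAs (libraries with 0 reads set to 3).

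The sterol and hypoxia list held only miR-33 and miR-210, and its 2 arms with 100 reads were higher at 0 h. Since it was chosen with earlier results of these data known, this is no result about a group. miR-33-5p, which lies in an intron of Srebf2 and represses the cholesterol exporter ABCA1, was 1444 CPM at 0 h and 4.74 CPM (1 read), 566, 73.9 and 132.9 CPM at 12, 16, 20 and 24 h. The released libraries differed among themselves by far more than 0 h differed from 16 h, where the ratio was 2.55 (2.22 to 2.93). Without the 16 h library the smallest ratio was 10.9, and when only inserts matching the hairpin over their whole length were counted it was 1.67. miR-210-3p, a target of the hypoxia-inducible factor HIF, was 1591 CPM at 0 h, then 711, 632, 501 and 177 CPM in order of time. Its ratio to 12 h, the nearest, was 2.24 (1.85 to 2.72).

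The imprinted Dlk1-Dio3 locus on chromosome 12, with 50 arms of 100 reads, did not stand out from all miRNAs. There, 2 arms were higher, 2 were lower, 13 lay above and 13 below the released range. Over all 218 miRNAs, 10 were higher, 13 were lower, 47 lay above and 45 below it. The median log2 ratio of the locus was −0.07, the same as over all miRNAs. miR-329-5p was 799 CPM at 0 h and 0, 255.3, 136.5 and 185 CPM after release. miR-376a-3p was 2895 CPM at 0 h against 261, 1446, 882 and 649.9 CPM, which at 2.002-fold is just past the threshold and was 1.71-fold when only the first 18 bases had to match. On the lower side, miR-323-3p was 38.8 CPM at 0 h against 744, 132.6, 233 and 332 CPM. miR-668-3p was 109 CPM at 0 h against 531, 221.8, 381 and 554 CPM, 0.49 of the nearest. The 2 most abundant, miR-127-3p (16413 CPM at 0 h, 14246 to 15637 after release) and miR-541-5p (5173 CPM, 7095 to 8670), lay on opposite sides of the released range, both within 2-fold of it.

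miR-669c-5p, of the rodent-specific cluster in an intron of Sfmbt2, was 749 CPM at 0 h and 0, 316, 210.45 and 126 CPM at 12, 16, 20 and 24 h. It was the only higher one of 10 members with 100 reads, whose median log2 ratio was −0.31, and the members of this cluster are near-identical copies, so that reads may be shared among them.

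The widest deficit of starved cells was in miR-155-5p. This miRNA is made from the Mir155hg transcript (chromosome 16, 84714143 to 84714165, plus strand), which AP-1 and NF-κB switch on. It had 14 reads at 0 h and 710, 1608, 293 and 277 reads at 12, 16, 20 and 24 h. Its level was 54.3 CPM at 0 h and 3365, 1993, 1667 and 2046 CPM after release. No released value came near it, and 0 h was 30.7-fold below the nearest, 20 h (ratio 0.033, 0.018 to 0.056). miR-146b-5p was 380.3 CPM at 0 h against 1171, 1472, 1263 and 1255.5 CPM. Its released values lay close together, and 0 h was 0.32 (0.25 to 0.41) of the nearest.

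The remaining 4 of 6 members of the growth-factor or serum responsive list were not set apart. miR-21a-5p, the most abundant, was 95526 CPM at 0 h, within the released range of 52140 to 102500 CPM. miR-31-5p was above the released range, at 2740 CPM against 427 to 1746 CPM. The median log2 ratio of the list was −0.93.

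miR-17-5p and miR-92a-3p, which lie in the polycistron that MYC and E2F switch on in growing cells (Mir17hg, chromosome 14), were both lower in starved cells. miR-17-5p was 919.8 CPM at 0 h against 1996, 4691, 2400.3 and 3818 CPM, 0.46 (0.39 to 0.54) of the 12 h value. miR-92a-3p, also made from a second hairpin on the X chromosome, was 1292 CPM at 0 h against 3564.5, 2900, 6331 and 6159 CPM, 0.45 (0.40 to 0.50) of the 16 h value. The rest of these clusters did not follow: of 9 members with 100 reads, 3 lay above the released range (miR-25-3p, miR-18a-5p and miR-19a-3p), of which miR-18a and miR-19a come from the same transcript as miR-17, and the median log2 ratio was −0.37. miR-17-5p was no longer 2-fold apart when reads were matched by 18 bases (0.51) or over the whole insert (0.58), and miR-92a-3p was not when libraries were scaled by total miRNA reads (0.54) or by DESeq2 size factors (0.5032).

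Of the 13 lower miRNAs, 5 were the arm with fewer reads of their hairpin (38.5%), against 47 of all 218 (21.6%) and 1 of the 10 higher. miR-29b-1-5p, the partner of miR-29b-3p on 1 of its 2 hairpins, had 3 reads at 0 h and 21, 296, 42 and 44 after release, or 11.6 CPM against 99.5, 366.8, 239 and 325 CPM. Of the 5 arms of the miR-29 family with 100 reads no other was set apart, 1 lay above and 2 below the released range, and the median log2 ratio was −0.05. The guide miR-29a-3p was 68662 CPM at 0 h and 71920 to 118950 CPM after release. miR-125b-1-3p was 481 CPM at 0 h against 1043, 1009, 1672 and 1750.3 CPM. Together with miR-668-3p it lost its call when libraries were scaled by total miRNA reads (0.57 and 0.59 of the nearest) or by DESeq2 size factors (0.54 and 0.55). Both also lost it with matching by 18 bases (0.5103 and 0.5016), and miR-668-3p with matching over the whole insert (0.61). miR-365-2-5p was 34.9 CPM (9 reads) against 512, 105, 307 and 207 CPM.

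miR-324-3p was 27.2 CPM (7 reads) at 0 h and 1308, 142.5, 683 and 539 CPM at 12, 16, 20 and 24 h. The 16 h value was the nearest, at a ratio of 0.19 (0.075 to 0.41), and without it the ratio was 0.050. miR-674-3p was 42.7 CPM at 0 h against 469, 304, 307 and 236 CPM. Both are arms with fewer reads than their partners. miR-872-3p, from an intron of Ift74, was 190.2 CPM against 1256, 565, 648 and 591 CPM. miR-183-5p, of a cluster best known from sensory cells, was 139.7 CPM against 668, 398, 375 and 458 CPM. miR-182-5p of the same cluster did not follow. Its 0 h level was 0.99 of that at 12 h, and 2.68-fold, 1.71-fold and 33.3-fold those at 16, 20 and 24 h.

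On the other side of the threshold, the nearest misses were miR-1983 (34.9 CPM at 0 h, 0.53 of the nearest released value) and miR-101a-3p (974 CPM, 1.77-fold above the nearest). Over all 218 miRNAs, 47 lay above and 45 below the released range. With total miRNA reads in place of TMM the split was 12 higher and 10 lower, and the median log2 ratio moved by 0.17. The 10 higher miRNAs were also called with total reads and with DESeq2 size factors. Leaving out the 16 h library gave 16 higher and 29 lower. Of the released libraries, 16 h had the lowest share of marker reads and the most miRNA reads, and the part of this in the count was not tested.

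**Figure D2:**
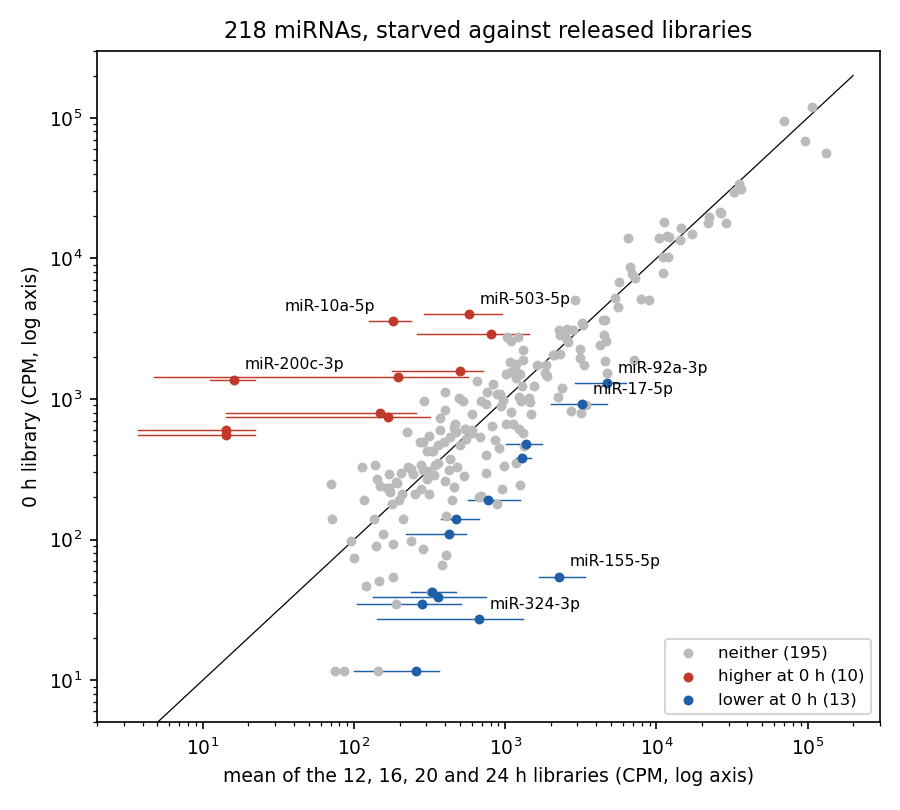
Level at 0 h (y axis, TMM-scaled CPM, log scale) against the mean of the 4 released libraries (x axis, CPM, log scale) for 218 miRNAs, with the line of equal level and 0 reads drawn at 3 reads. The 10 higher (red) and 13 lower (blue) miRNAs have a horizontal bar from the lowest to the highest released library, and the others are grey.

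edgeR's quasi-likelihood test asked whether 0 h lay outside the spread between the 4 released times. It treated them as 1 group, so that this spread holds phase differences, and took the lone 0 h library to vary as they did. With Benjamini-Hochberg adjustment over 338 miRNAs it called 3 higher (0.888%) and 3 lower (0.888%), with 9 and 23 at an unadjusted p under 0.05. miR-200c-3p (adjusted p 1.24e-08), miR-10a-5p (log2 fold change 4.30, SE 0.68, adjusted p 7.52e-08) and miR-503-5p (2.78, SE 0.62, adjusted p 0.000785) were higher. miR-155-5p (−5.37, SE 1.03, adjusted p 2.57e-05), miR-324-3p (−4.598, SE 1.30, adjusted p 0.0241) and miR-3102-3p (adjusted p 0.0206) were lower. In each case 0 h lay on the same side of 4 of 4 released libraries.

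miR-3102-3p was not among the 218, since it had fewer than 100 reads everywhere. It had 0 reads at 0 h and 81, 44, 74 and 68 after release. With the 0 set to 3 reads, miR-3102-3p was 4.68-fold lower than in the nearest library, 16 h. miR-10a-5p and miR-155-5p kept an adjusted p under 0.05 when any 1 released library was left out (2.58e-05 to 0.00723 and 0.000594 to 0.0123). miR-503-5p lost it without 12 h (0.131; range over the other alternatives 0.000174 to 0.0368). miR-324-3p and miR-3102-3p lost it without 12 h (0.241 and 0.179), 20 h (0.202 and 0.26) or 24 h (0.0882 and 0.3). miR-200c-3p was not tested without 16 h, because 0 h was then the only library above the 10 CPM minimum.

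Within hairpins, the use of the 5p and 3p arms was compared as a ratio, which does not depend on scaling between libraries. Of 26 hairpins with at least 10 reads of each arm in every library, 3 had a ratio at 0 h at least 2-fold from each released library (11.5%), 5 lay above and 6 below the released range, and 15 lay within it. The arms of the 3 are printed because they are the duplexes in which the balance differed (RefSeq, GRCm38.p6, seed in capitals):

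miR-23a-5p: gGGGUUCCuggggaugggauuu

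miR-23a-3p: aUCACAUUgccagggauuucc

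miR-376b-5p: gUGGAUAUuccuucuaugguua

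miR-376b-3p: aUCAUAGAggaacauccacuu

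miR-674-5p: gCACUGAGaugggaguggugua

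miR-674-3p: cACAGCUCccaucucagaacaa

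Mir674 showed the widest difference, towards its 5p arm. It gave 161 reads of the 5p and 11 of the 3p arm at 0 h, a 3p share of 6.39% (ratio 0.068). The 3p share was 49.2% at 12 h, 42.0% at 16 h, 44.3% at 20 h and 30.8% at 24 h. The 0 h ratio was 0.15 (0.067 to 0.34) of that at 24 h, the nearest. The 5p arm itself was 625 CPM at 0 h and 387 to 532 CPM after release, so the 2 arms lay on opposite sides of the released range.

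Mir376b differed towards its 3p arm, with 12.5 reads of 3p per read of 5p at 0 h and 1.07 (12 h), 3.39 (16 h), 3.81 (20 h) and 5.62 (24 h) after release. The odds ratio to 24 h was 2.22 (1.28 to 3.83). Mir23a, whose guide is the 3p arm, gave 5055 reads of 3p and 11 of 5p at 0 h, a ratio of 459 against 121, 220, 167 and 100. Only 11 reads carry this value, and the odds ratio to 16 h was 2.09 (1.10 to 4.37). With at least 30 reads of each arm asked for, none of 18 hairpins was called, and each of the 3 has an arm with fewer than 30 reads in at least 1 library.

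Passenger use as a whole did not set 0 h apart. Over 121 hairpins with both arms, the arm with fewer reads took 7.09% of reads at 0 h (6.97 to 7.22), and 8.67%, 5.64%, 6.97% and 6.54% at 12, 16, 20 and 24 h. The 0 h share thus lay second of the 5. Its median over 61 hairpins with 100 reads was 3.59%, within the released range of 1.96% to 4.69%.

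**Figure D3:**
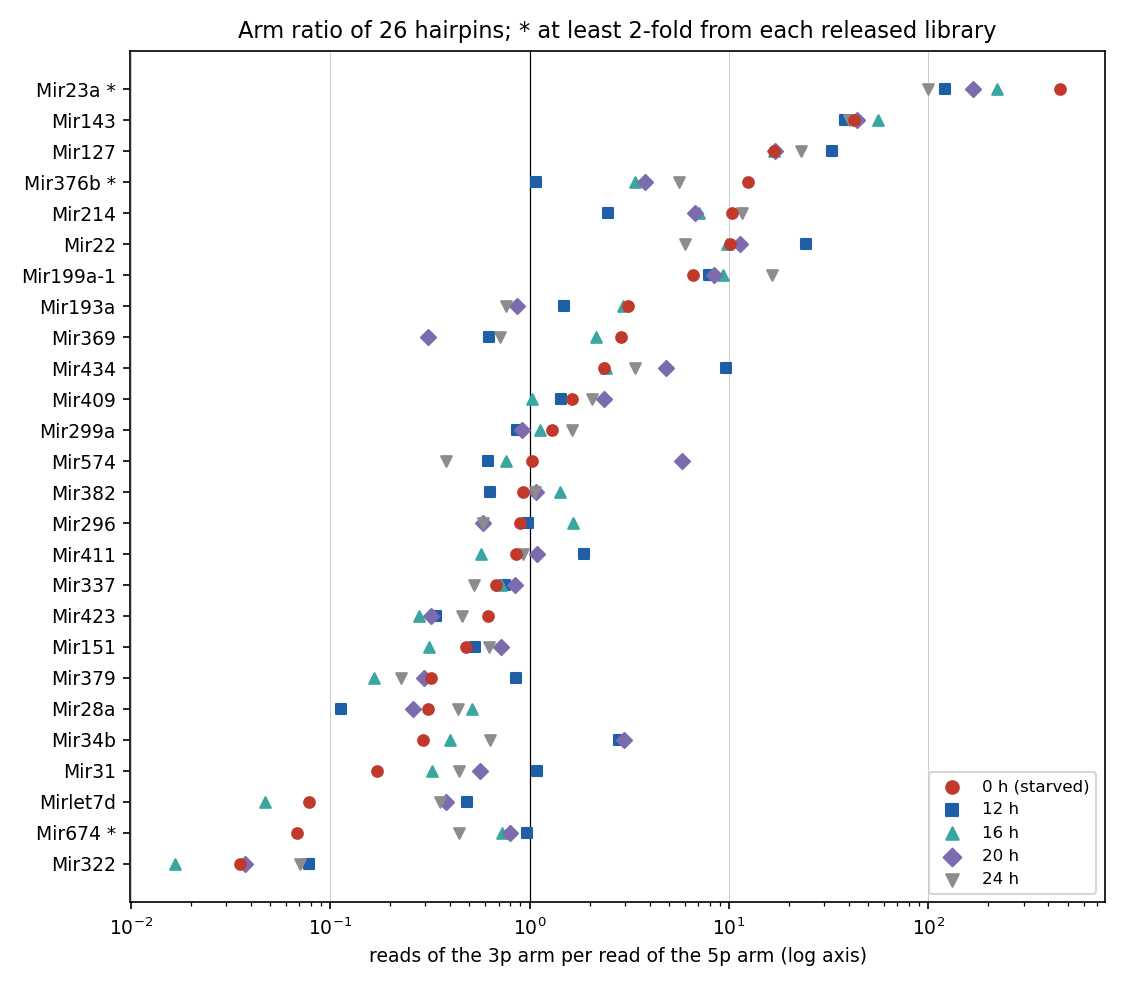
Reads of the 3p arm per read of the 5p arm (x axis, log scale) in each library for the 26 hairpins with at least 10 reads of each arm in every library, ordered by the 0 h share of 3p. In Mir23a, Mir376b and Mir674 (marked *) the 0 h symbol lies at least 2-fold outside the 4 released symbols, and in 15 hairpins it lies among them.

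The 3′ ends of miRNAs were less varied in starved cells for most of those that differed. For each of 64 miRNAs with at least 200 reads in every library, the share of reads ending at its most common 3′ end was taken. In 13 of them (20.3%) the 0 h share was at least 10 percentage points from every released library with no overlap of the intervals, and in 11 of the 13 it was higher. Over all 64, 27 lay above and 15 below the released range. The 6 with the widest difference are printed with their seeds in capitals, and their RefSeq 3′ end can be compared with the most common length given for each:

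miR-423-5p: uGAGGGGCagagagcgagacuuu

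miR-214-3p: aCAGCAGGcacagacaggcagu

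miR-127-3p: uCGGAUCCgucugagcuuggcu

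let-7b-5p: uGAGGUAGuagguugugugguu

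miR-541-5p: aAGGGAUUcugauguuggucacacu

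miR-744-5p: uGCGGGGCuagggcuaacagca

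miR-423-5p ended at 23 nt in 81.6% of reads at 0 h. That share was 32.9% at 12 h, 58.6% at 16 h, 55.5% at 20 h and 62.2% at 24 h. miR-214-3p, of the mesenchymal Dnm3os transcript, ended at 23 nt in 59.7% of reads at 0 h against 38.2%, 41.0%, 40.7% and 26.7%. Its pooled reads most often began 1 base upstream of the RefSeq start, and only reads with that start enter these shares. Of perfectly matching reads within 3 nt of that start, 46.5% at 0 h and 43.3% to 63.3% after release began elsewhere. miR-127-3p, the imprinted antisense partner of Rtl1, ended at 22 nt in 59.9% at 0 h against 42.2%, 39.6%, 40.9% and 30.7%.

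let-7b-5p, a member of the family that represses RAS, MYC and HMGA2, ended at 22 nt in 50.2% of reads at 0 h (n = 4628 reads) against 34.96%, 32.7%, 34.4% and 30.5%. miR-541-5p ended at 22 nt, 3 bases short of its RefSeq end, in 37.1% against 22.2%, 22.7%, 22.97% and 20.2%. In these 5 miRNAs the 4 released values lay nearer to each other than to 0 h, apart from miR-423-5p with its low 12 h share. miR-744-5p went the other way, with 21.1% at 22 nt at 0 h against 35.8%, 50.03%, 41.2% and 37.8%, as did miR-221-3p. No miRNA differed by 20 points from every released library.

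Length followed the same direction, but it was taken from the same reads as the 3′ ends and is not independent of them. The mean length at 0 h was below the released range in 29 of the 64 miRNAs and above it in 12. Reads of 25 to 30 nt made up 0.911% of inserts matching miRNA hairpins at 0 h and 1.93% to 2.86% after release. miR-127-3p had a mean of 22.41 nt at 0 h and 22.83 to 23.10 nt after release.

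Bases added at the 3′ end that the hairpin does not encode were counted as tails of 1 to 3 nt. Such tails are put on by terminal nucleotidyl transferases. Reads with tails are also part of the 3′-end shares and mean lengths above, so these measures overlap. A tails were fewer in starved cells, in 4.89% of miRNA reads (4.80 to 4.97) against 7.28%, 7.15%, 6.78% and 9.32% at 12, 16, 20 and 24 h. U tails were more frequent, in 6.39% (6.29 to 6.49) against 5.95%, 5.72%, 5.15% and 4.79%. C tails and G tails were each in at most 0.280% of reads in every library. By the median over 62 miRNAs, however, the A-tail share at 0 h (4.99%) was not lowest, since it was 4.42% at 12 h and 7.52% to 11.1% at the other times, while the U-tail median of 3.85% was above 1.82% to 3.00%.

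By miRNA, the A-tail share at 0 h lay below the released range in 29 of 62 and above it in 7, and the U-tail share above it in 19 and below it in 10. let-7b-5p had A tails on 11.8% of reads at 0 h and on 24.0%, 26.1%, 26.97% and 30.8% after release, beside its more uniform 3′ end. miR-543-3p had A tails on 0 of 201 reads at 0 h and on 17.4% to 33.6% after release. miR-351-5p had U tails on 30.1% of reads at 0 h and on 13.7%, 9.66%, 10.8% and 12.2% after release. Exceptions existed: miR-382-3p had A tails on 11.8% at 0 h against 0% to 3.77%. miR-543-3p, miR-351-5p and miR-382-3p were picked after their values were seen. The 0 h library held 7.95 distinct inserts per 1000 miRNA reads and the released ones 6.23 (12 h), 8.09 (16 h), 14.8 (20 h) and 14.9 (24 h), and the part of library complexity in the 3′ ends was not tested.

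**Figure D4:**
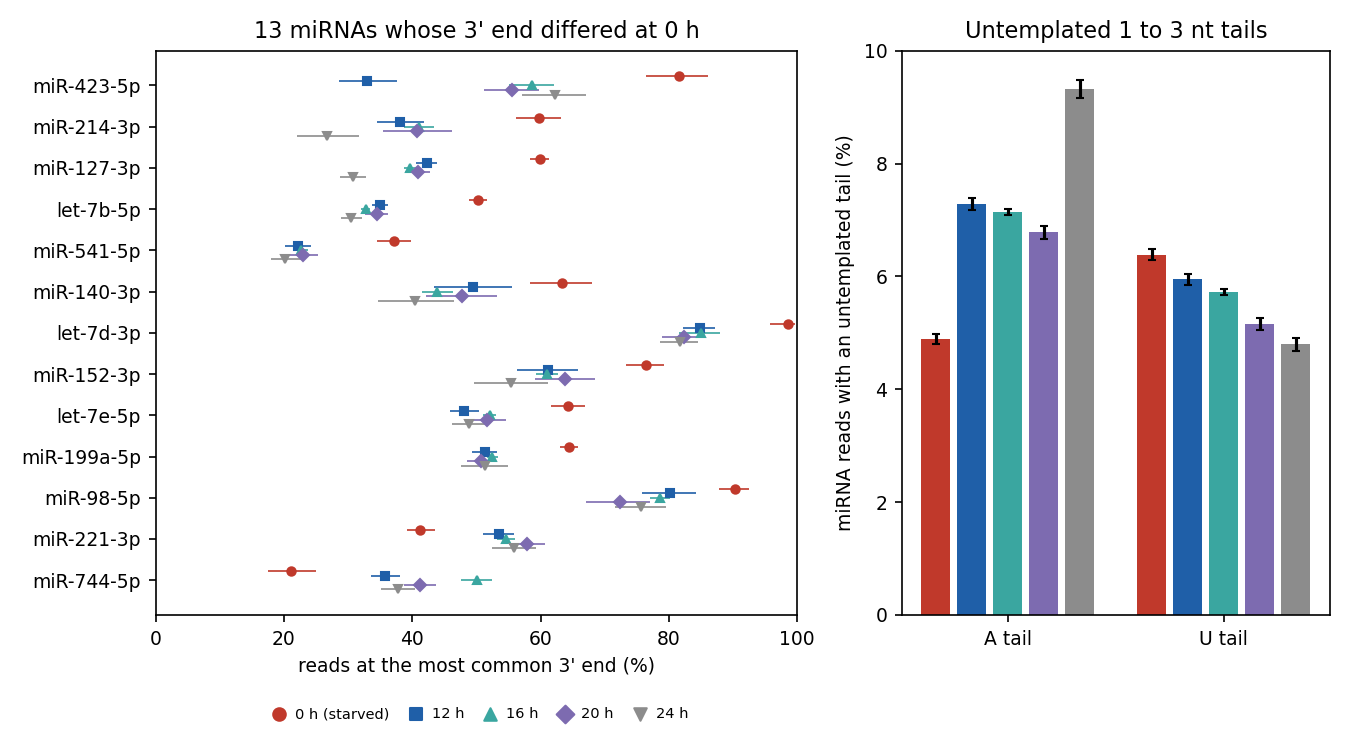
Left, share of reads at the most common 3′ end (x axis, %, with 95% exact binomial intervals) for the 13 miRNAs in which 0 h differed by at least 10 points from each released library. Right, share of miRNA reads with an untemplated A or U tail (y axis, %, same intervals) by library in the same colours; 0 h has the lowest A-tail bar, 4.89%, and the highest U-tail bar, 6.39%.

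The 5′ end, which sets the seed, differed by little, but its pooled shifted share at 0 h lay above the released range. Of perfectly matching reads within 3 nt of an arm's start, 5.63% (5.53 to 5.72) did not begin at it at 0 h, against 5.20%, 5.26%, 5.41% and 4.78%. Without the 5 miRNAs with most shifted reads, the share was 3.90% at 0 h and 2.82% to 3.51% after release. The median over 60 miRNAs was 1.66% at 0 h, within the released range of 0.701% to 2.02%. The share lay above the released range in 12 miRNAs, below it in 7 and within it in 41. miR-320-3p, chosen after its values were seen, had 2.87% shifted reads at 0 h and 12.2% to 20.0% after release.

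The pooled inserts, and those matching miRNA hairpins, peaked at 22 nt in every library, while the inserts that were not miRNA peaked at 23 nt at 0 h and at 22 nt after release. Those of 20 to 24 nt made up 80.9% of inserts of 16 to 30 nt at 0 h, within the released range (82.6%, 86.0%, 81.1% and 78.5%). At the edges 0 h stood at one end: inserts of 16 to 19 nt were 13.9% at 0 h and 7.88% to 13.7% after release, and inserts of 25 to 30 nt were 5.20% against 6.10% to 7.84%. The same library held the many reads with an insert under 16 nt, most of them with no insert, that were left out.

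Perfect matches to miRNA hairpins were 68.1% of inserts at 0 h (67.9 to 68.2), below 74.5%, 80.2%, 72.7% and 70.4% in the released libraries. Inserts without a match in the annotation used, which holds no nuclear tRNA and no full-length 18S or 28S rRNA, were 29.4% at 0 h and 17.6% to 26.3% after release. The named classes were small. Fragments of snoRNAs or scaRNAs, which guide modification of other RNAs, were 0.599% at 0 h and 0.557% to 0.685% after release, and 1.88% of inserts that were not miRNA at 0 h against 1.95% to 3.46%. Mitochondrial RNA was 0.301% at 0 h, above 0.188% to 0.265%, but as a share of inserts that were not miRNA it was 0.943%, within 0.734% to 0.969%.

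Fragments of Rn7s1, Y RNA and other small RNAs were 0.0987% at 0 h, below the released 0.125% to 0.189%, and lowest also as a share of inserts that were not miRNA (0.309% against 0.499% to 0.691%). Rn7s1 gave 46.0% of this class at 0 h, and the Y RNAs Rny1 and Rny3 gave 31.75% and 19.05%. Fragments of snRNA, the RNA of the spliceosome, were 0.112% at 0 h and 0.0371% to 0.0946% after release, but as a share of inserts that were not miRNA they were 0.351%, within 0.125% to 0.370%. Among single genes, looked at after their values were seen, Lars2 gave 1504 per 1000000 inserts at 0 h against 331 to 432, and the C/D snoRNA Snord49b gave 603 against 162 to 366.

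**Figure D5:**
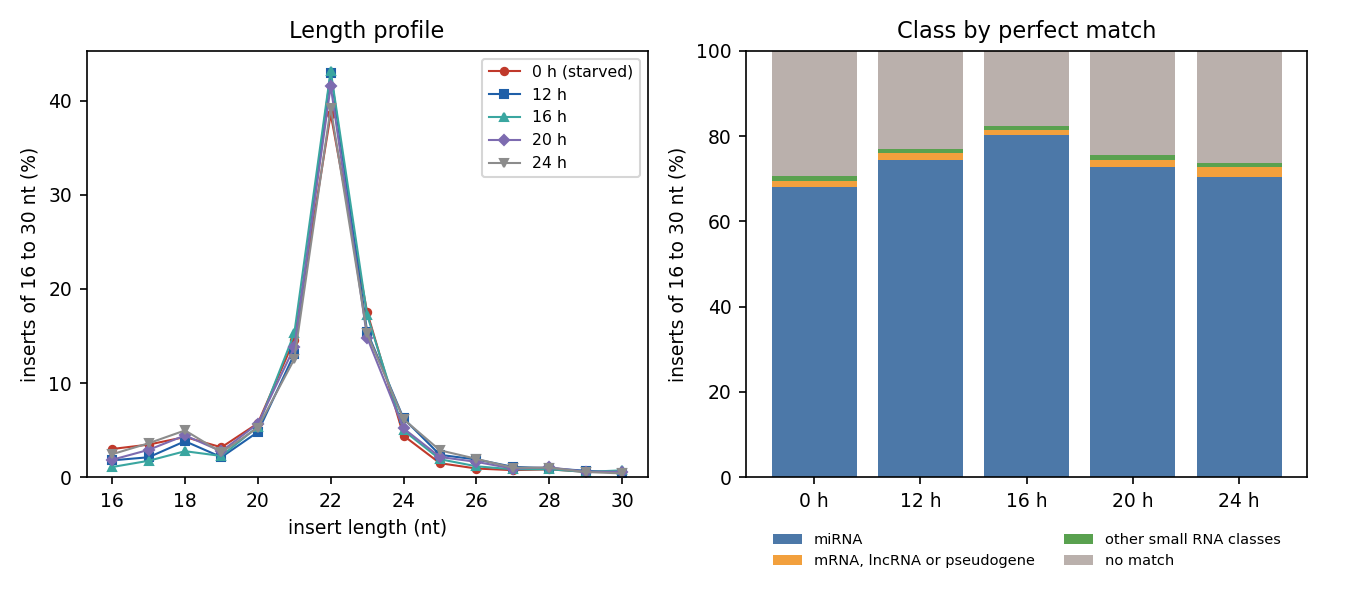
Left, share of inserts of each length from 16 to 30 nt (y axis, %) in the 5 libraries, all with their peak at 22 nt. Right, share of the same inserts by class (stacked, %), with miRNA at 68.1% at 0 h and 70.4% to 80.2% after release.

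Families followed as lists that held no miRNA set apart were let-7 with miR-98, miR-30, miR-34, miR-181, miR-221 with miR-222, miR-23 with miR-24 and miR-27, and miR-130 with miR-301, miR-148 and miR-152. let-7, with 10 members of 100 reads, had 0 above and 1 below the released range, and its most abundant members lay within it (let-7c-5p at 29689 CPM at 0 h against 22143 to 38467, let-7a-5p at 21151 against 20619 to 33403). Of the miR-181 family, the 3 of 5 arms with 100 reads were above the released range, miR-181a-5p by little (1521 CPM against 960.46 to 1484). miR-181d-5p was 966 CPM at 0 h and 406 to 751 CPM after release. In the p53-linked miR-34 family, miR-34b-5p was 1122 CPM at 0 h, above 239 to 796 CPM, while miR-34b-3p (326 CPM) lay within the released range.

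miR-222-3p, which represses the cell-cycle inhibitor p27, was 7937 CPM at 0 h and 9653 to 13101 CPM after release, and miR-221-3p (7746 CPM) lay within 5960 to 7992 CPM. Of the miR-30 family, 2 of 8 members lay above and 1 below the released range. Its most abundant members were miR-30d-5p, at 2429.5 CPM at 0 h against 2914 to 5369, and miR-30c-5p, at 1758 against 1270.2 to 2132.9. miR-24-3p (31114 CPM at 0 h, 28047 to 43243 after release) and miR-23a-3p (19618 against 19896 to 25681) were within the released range and just below it, and of the last list miR-130a-3p (6784 CPM against 3612 to 9896) and miR-152-3p (3120.3 against 1991 to 3708) lay within the released range.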

How the data were processed

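Per the labels, small-RNA cDNA libraries were prepared as in an earlier publication. The deposited files of the authors hold, for each library, distinct 36-nt reads and the count of each, 3′ adapter included. The read caller, any filter, aligner or genome build used for them is not given in the sources used here.

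The adapter (at least 6 bases, 1 mismatch per 8), 2 abundant marker oligonucleotides (18 and 30 nt; 12 shared bases or 3 edits by edlib 1.3.9.post1) and 5′-adapter fragments were found in the reads and removed in Python 3.11.15, and inserts of 16 to 30 nt were kept. Hairpins (1005 of RefSeq GRCm38.p6, 217 of GENCODE M21 only) gave 392 mature arms (10 or more reads, with 50% or more sharing a 5′ end); 47 arms come from more than 1 hairpin. Reads were counted by their first 20 bases. Classes were given by perfect match, miRNA first. Counts were TMM-scaled over the 5 serum libraries and tested with edgeR 4.0.16 (R 4.3.3; at least 10 CPM in 2 libraries; 2-sided; 3 residual degrees of freedom), with DESeq2 1.42.0 as an alternative. The SE is the log2 fold change over the square root of its F value. On simulated data for this comparison (338 miRNAs, 40 changed) edgeR recovered 11.2% of 4-fold, 28.3% of 8-fold and 46.3% of 16-fold changes. Shares have 95% exact (Clopper-Pearson) intervals and ratios the conditional binomial ones; both cover counting error only, since the reads carry no molecular identifiers; a count of 0 was set to the upper limit of 3 reads. Depth was 136484 to 884579 miRNA reads per library. As nothing names separate cultures, p-values cover the spread among the 4 released libraries, which may be technical. The lone 0 h library adds nothing to that spread.

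Named miRNAs were all those called by either rule, the 5 most abundant, called arm pairs, the 6 widest 3′-end differences, the 2 most abundant and any called member of each list, and the 2 called and 2 uncalled miRNAs nearest the threshold. Members and lists were chosen with earlier results of these data known. Alternatives were another scaling, read minimum, matching rule and fold, and leaving out each released library.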

Additional observations from a re-analysis of the deposited data

How the results depend on the processing

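No paired analysis was possible because each time has 1 library and the labels give no number that joins libraries. Each of the 23 miRNAs set apart stayed on the same side of all released libraries in the 9 to 11 alternatives that gave it a value. Only another scaling or matching rule could have changed the side, since the other alternatives reuse the same ratios. The call itself was less stable: miR-668-3p kept it in 5 of 10 alternatives and miR-125b-1-3p in 7 of 11, while miR-10a-5p and miR-155-5p kept it in 11 of 11. miRNAs set apart (10 higher and 13 lower) numbered 4 and 5 with at least 500 reads, 25 and 23 with at least 30, and 6 and 7 at 3-fold; without 1 released library they ran from 10 to 16 and from 14 to 29. edgeR's 3 higher became 5 with no filter (2 to 3 without 1 library), and its 3 lower became 5 with DESeq2 (1 to 10 without 1 library: 1 without 12, 20 or 24 h and 10 without 16 h). Arm pairs called went from 3 to 0 with at least 30 reads of each arm, to 6 with 5, and to 3 to 8 without 1 library (7 without 12 h, 8 without 16 h). The 13 miRNAs with another 3′ end became 6 with 500 reads, 0 at 20 points, and 13 to 20 without 1 library (20 without 12 h).

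Shares at 0 h moved by more than their counting interval as follows, with the released range. The minor arm took 3.59% as a median over pairs (1.96% to 4.69%) and 9.02% without the 5 largest pairs (7.76% to 13.6%). The A tail was 4.99% as a median (4.42% to 11.1%) and 4.16% for exactly 1 A (5.41% to 7.12%). The U tail was 3.85% as a median (1.82% to 3.00%) and 5.84% for exactly 1 U (4.34% to 5.32%). Shifted 5′ ends were 1.66% as a median (0.701% to 2.02%) and 4.87% within 1 nt (4.29% to 4.70%). Inserts of 20 to 24 nt were 81.8% with at least 8 adapter bases (79.3% to 87.2%), 57.8% when markers were removed only within 1 edit (32.5% to 61.0%) and 56.5% of distinct sequences (46.5% to 51.4%). miRNA matches were 71.9% of inserts of 18 nt or longer (74.2% to 81.9%) and 9.12% of distinct sequences (8.48% to 13.6%). The A-tail share as a median and the miRNA share of distinct sequences at 0 h thus lay within the released range, where those of reads lay below it. The cause was not tested. At 24 h, the shallowest library, a count of 0 allows up to 22.2 CPM.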
